A study of Mus musculus with 6 samples.

Results

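The integrated stress response was followed through 10 genes, of 19505 genes measured on the array: the transcription factors Atf4, Atf5, Atf3 and Ddit3, the phosphatase subunit Ppp1r15a, and the targets Trib3, Sesn2, Ddit4, Chac1 and Asns. They were named for their known roles in the response, with no threshold on a measured value, but with earlier results of these data known. The RNA came from 6 Affymetrix Clariom S mouse arrays of lines derived from melan-a, an immortalized C57BL/6J melanocyte line, grown untreated in RPMI with serum. The control line mVec was transduced with a control vector (titles CD516B2). The lines mKitK641E(T) (titles C3#) and mKitK641E(PT) (titles hi exp), named T and PT from here on, carry c-kit(K641E), a mutant form of the receptor tyrosine kinase Kit, and the labels describe both as transformed melanoma. The labels do not give what T and PT stand for or which promoter drives the transgene.

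In this response, kinases that sense amino acid shortage, endoplasmic reticulum stress, double-stranded RNA or haem shortage phosphorylate the alpha subunit of the translation initiation factor eIF2. Phosphorylated eIF2 blocks its own exchange factor eIF2B, so that most initiation slows, while the messages of Atf4, Atf5, Ddit3 and Ppp1r15a, which carry upstream open reading frames, are translated better. ATF4 pairs with C/EBP factors and induces genes for amino acid uptake, amino acid synthesis and tRNA charging, and Ppp1r15a then helps to remove the phosphate again. In melanocytes and melanoma this pathway is known for its link to nutrient supply and to the pigment factor MITF. The arrays measure transcripts, so neither eIF2 phosphorylation nor protein was measured.

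Each of the 10 genes was higher in T and in PT than in mVec. The values are deposited log2 levels, and a gene was called when limma's adjusted p was under 0.05, over 22206 gene probe sets. The count of 10 called higher in T stands beside 16.9% of all probe sets called higher and 15.5% called lower, and the 10 called higher in PT beside 17.9% called higher and 18% called lower. Among the 7953 probe sets above background on at least 2 arrays the shares were larger, 36.5% higher and 27% lower in T and 37.3% higher and 31.7% lower in PT. In both comparisons the Kit arrays lay above both mVec arrays for all 10 genes, against 31.6% of probe sets for T and 36.2% for PT. The median log2 difference of the 10 was 2.58 in T, between 1.12 and 4.45, beside a median of 0.01 over all probe sets and 0.18 over those above background. In PT the median of the 10 was 2.14, between 1.33 and 4.39, beside 0.08 over all probe sets and 0.14 over those above background. Atf3, Sesn2 and Ppp1r15a were at background in mVec, so their log2 differences rest on readings under the limit and their folds are lower bounds. Sesn2 is one of the 2 middle values behind each median of the 10, and Atf3 is the top of each range. These medians and upper ends thus rest on such readings too. T and PT were compared with the same mVec arrays, so the results of the lines are not independent of each other.

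Each line is a single line with 2 arrays, and the labels do not say whether the arrays came from separate cultures, so the p-values measure the spread between these arrays, which may be technical. Background was limited on each array by 5222 negative-control probe sets, at their 95th percentile, which fell between 8.74 and 9.16, and 29% to 32.6% of gene probe sets exceeded this limit. Kit itself, the altered gene, read 4.68 and 4.97 in mVec, 4.53 and 5.18 in T and 4.53 and 3.84 in PT, under the limit on every array. Its probe set thus does not bear out the labelled transgene. Whether its probes detect the transgene was not tested. Of 10 melanocyte markers measured, Mitf passed the limit on 2 arrays, both of T, and the others, among them Tyr, Dct and Sox10, passed it on none, which goes against the labelled cell type. Fibroblast markers moved with the comparison: the mean log2 level of 8 was 11.27 to 11.28 in mVec, 6.59 to 6.65 in T and 5.87 to 6.07 in PT. In each Kit line 6 were called lower, among them Lum, which lay at background in all lines, and 1 higher. The 1 called higher, Col1a2, was at background in mVec and passed the limit on 1 of 2 PT arrays. Cdh5 of 5 endothelial markers was above the limit in mVec only, and no keratinocyte, leukocyte, mast cell or Schwann cell marker passed it. In bulk RNA fewer cells of a type and less RNA per cell cannot be told apart, and the part of these markers in the results that follow was not tested.

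The promoters of the 10 genes were read for the C/EBP-ATF response element to which ATF4 and its partners are known to bind. The letters TGATGNAA, searched on both strands from 250 bases before to 50 bases after the transcription start in RefSeq on GRCm38.p6, were found in 4 of the 10 genes (Atf3, Chac1, Trib3 and Asns), and in 4.51% of 26994 genes. The 3 matches that lie before the start are printed in the direction of their gene, with the matched letters in capitals. They lie at chr1:191183410-191183469 on the minus strand for Atf3, chr2:119351023-119351082 on the plus strand for Chac1 and chr6:7693210-7693258 on the minus strand for Asns.
Atf3: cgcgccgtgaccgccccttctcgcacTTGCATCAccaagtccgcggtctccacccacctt
Chac1: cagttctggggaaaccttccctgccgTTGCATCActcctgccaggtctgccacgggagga
Asns: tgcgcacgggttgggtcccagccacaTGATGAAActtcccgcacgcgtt
The matches begin 110 bases before the start in Atf3, 193 in Chac1 and 23 in Asns. Those of Atf3 and Chac1 hold the same 8 letters and lie on the strand opposite the gene, as TGATGCAA, whereas that of Asns lies on the gene's own strand. The match of Trib3, TGATGTAA on the opposite strand, begins 15 bases into the transcript. The E-box CACGTG, searched the same way, was in none of the 10 and in 8.09% of genes. A match describes the letters in the window and says nothing of binding. The 10 were named for known roles in the response, so the share with a match may follow from that choice.

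**Figure D1:**
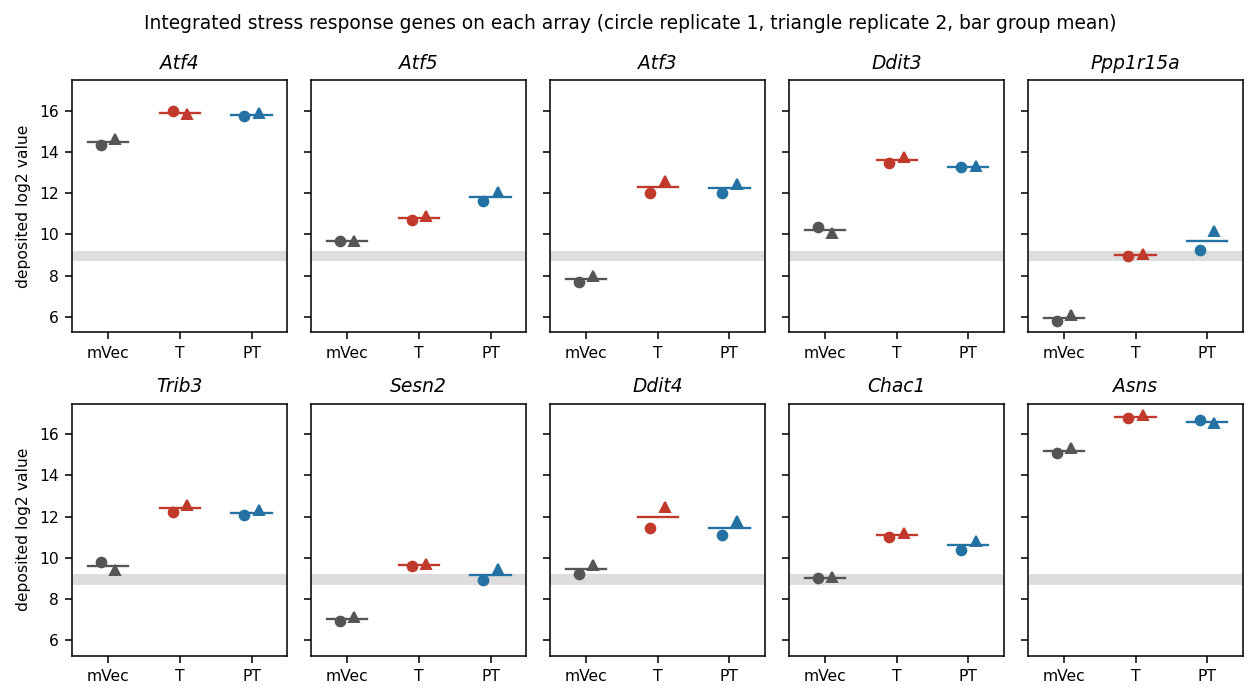
Deposited log2 value of each gene on each of the 6 arrays, with circles for replicate 1, triangles for replicate 2 and bars for the mean of the 2 arrays of a line; the grey band spans the background limits of the arrays, 8.74 to 9.16. For all 10 genes both T arrays and both PT arrays lie above both mVec arrays, and Atf3, Sesn2 and Ppp1r15a lie under the limit in mVec; heights should not be compared between genes, which have different probes.

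Among the transcription factors, Atf4, the effector whose translation defines the response, read 14.34 and 14.62 on the mVec arrays, 15.96 and 15.84 on the T arrays and 15.73 and 15.89 on the PT arrays. The T and PT arrays overlapped each other and lay apart from mVec. In T the level was higher by 1.42 ± 0.21 (SE, n = 2 arrays a line), or 2.67-fold, with limma's adjusted p = 0.000493, and in PT by 1.33 ± 0.21, or 2.52-fold, with limma's adjusted p = 0.000617.

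Atf5, a relative of Atf4 that is under like translational control and is linked to mitochondrial stress, read 9.69 and 9.68 in mVec, 10.69 and 10.91 in T and 11.61 and 12.07 in PT. The lines formed 3 separate steps with no overlap. The difference from mVec was 1.12 ± 0.23 in T (2.17-fold, limma adjusted p = 0.00358) and 2.15 ± 0.23 in PT (4.45-fold, limma adjusted p = 3.95e-05).

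Atf3, a factor that is itself induced by ATF4 and by many other stresses, had no array above background in mVec. It read 7.67 and 8.004 in mVec, under the limit on both arrays, 12.02 and 12.57 in T and 12.02 and 12.43 in PT. Set against the limit of the mVec arrays, the rise was at least 9.78-fold in T (log2 difference 4.45 ± 0.26, limma adjusted p = 1.27e-06) and at least 9.33-fold in PT (4.39 ± 0.26, limma adjusted p = 9.47e-07).

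Ddit3, which encodes CHOP, a C/EBP-type factor tied to cell death in long stress, read 10.37 and 10.08 in mVec, 13.47 and 13.75 in T and 13.28 and 13.30 in PT. Both Kit lines lay well apart from mVec, and the T arrays lay just above the PT arrays. The difference was 3.39 ± 0.22 in T (10.5-fold, limma adjusted p = 2.01e-06) and 3.07 ± 0.22 in PT (8.4-fold, limma adjusted p = 2.55e-06). Ddit3 was the only one of the 10 with another probe set. That probe set read 7.93 and 7.87 in mVec, at background, 11.12 and 11.81 in T and 10.47 and 11.07 in PT. Its differences were 3.57 ± 0.29 in T and 2.87 ± 0.29 in PT, at least 5.51-fold and at least 3.4-fold higher, in the same direction as the probe set used.

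Ppp1r15a encodes GADD34, the stress-induced subunit that guides protein phosphatase to eIF2alpha and so closes the feedback loop. It read 5.82 and 6.12 in mVec, 8.97 and 9.04 in T and 9.25 and 10.15 in PT. The mVec arrays were under the limit and the T arrays just above theirs, so no fold is given for T, where the log2 difference was 3.03 ± 0.29 (limma adjusted p = 3.05e-05). In PT the difference was 3.73 ± 0.29, at least 1.62-fold, with limma's adjusted p = 5.4e-06.

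Of the targets that restrain growth signals, Trib3, a pseudokinase that binds AKT and ATF4, read 9.78 and 9.43 in mVec, 12.24 and 12.58 in T and 12.07 and 12.31 in PT. It was 6.99-fold higher in T (log2 difference 2.81 ± 0.23, limma adjusted p = 1.05e-05) and 5.99-fold higher in PT (2.58 ± 0.23, limma adjusted p = 1.26e-05), with no overlap between Kit and mVec arrays. Sesn2, a leucine sensor that holds back the growth kinase complex mTORC1, read 6.93 and 7.15 in mVec, under the limit, 9.61 and 9.72 in T and 8.91 and 9.44 in PT, where 1 of 2 arrays passed its limit. The log2 difference was 2.63 ± 0.24 in T (at least 1.59-fold, limma adjusted p = 1.91e-05) and 2.13 ± 0.24 in PT (at least 1.13-fold, limma adjusted p = 5.68e-05).

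Ddit4, also called REDD1, is an mTORC1 inhibitor that answers to hypoxia and glucocorticoids as well as to ATF4. It had the widest spread between arrays of the 10 genes in mVec and in T, with 9.24 and 9.63 in mVec, 11.46 and 12.46 in T and 11.08 and 11.76 in PT. The Kit arrays still lay above both mVec arrays. The log2 difference was 2.52 ± 0.35 in T (5.75-fold, limma adjusted p = 0.000332) and 1.99 ± 0.35 in PT (3.96-fold, limma adjusted p = 0.00131).

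Of the metabolic targets, Chac1, an enzyme that breaks down glutathione, read 9.02 and 9.06 in mVec, where 1 of 2 arrays passed its limit, 10.99 and 11.19 in T and 10.37 and 10.83 in PT. It was 4.13-fold higher in T (log2 difference 2.05 ± 0.23, limma adjusted p = 7.17e-05) and 2.94-fold higher in PT (1.56 ± 0.23, limma adjusted p = 0.000355). Asns, asparagine synthetase, read 15.08 and 15.31 in mVec, 16.77 and 16.91 in T and 16.66 and 16.55 in PT. It was 3.13-fold higher in T (1.65 ± 0.21, limma adjusted p = 0.000165) and 2.65-fold higher in PT (1.41 ± 0.21, limma adjusted p = 0.000375).

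The Kit lines themselves differed in 1 of the 10 genes. Atf5 was lower in T than in PT by a log2 difference of -1.04 (95% confidence interval -1.55 to -0.53), that is 2.05-fold higher in PT, with limma's adjusted p = 0.0237, and its T and PT arrays did not overlap. Over all probe sets 5.67% were called higher in T than in PT and 2.7% lower. Among probe sets above background on at least 2 arrays the shares were 12.2% and 5.61%. The call of Atf5 was lost when either T array or PT replicate 2 was left out, with differences of -0.93, -1.15 and -0.81. Ppp1r15a was also lower in T, by -0.70 (interval -1.36 to -0.04), but its adjusted p was 0.197 and it was not called.

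The other 8 genes had higher means in T than in PT, and none was called. The difference was 0.54 for Ddit4 (interval -0.25 to 1.33), 0.49 for Sesn2 (-0.04 to 1.03) and 0.49 for Chac1 (-0.02 to 0.999). It was 0.32 for Ddit3 (-0.17 to 0.81), 0.24 for Asns (-0.22 to 0.70) and 0.22 for Trib3 (-0.30 to 0.74). For Atf4 it was 0.09 (-0.38 to 0.56) and for Atf3 0.07 (-0.52 to 0.66). These intervals leave room for a change of up to 1.33 log2 units, so equal levels are not shown. T and PT arrays did not overlap for 6 of the 10 genes, near the 50.1% of all probe sets whose T and PT arrays did not overlap in either direction.

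**Figure D2:**
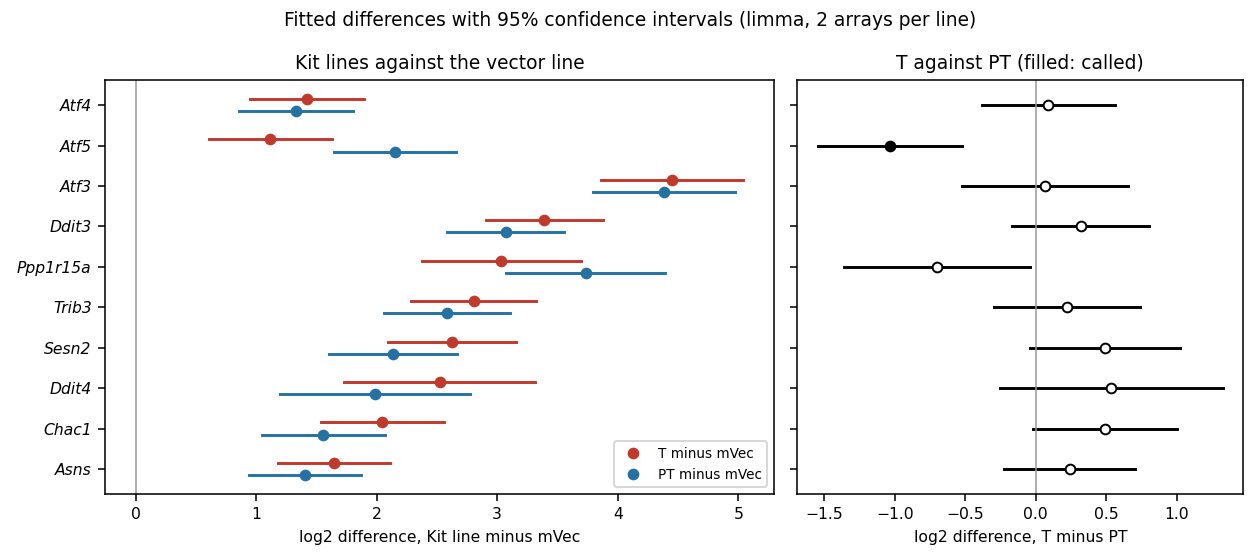
Fitted log2 differences with 95% confidence intervals, T and PT against mVec on the left and T against PT on the right, from limma with 2 arrays per line. All differences from mVec lie above 0, from 1.12 to 4.45 in T and from 1.33 to 4.39 in PT, and in T against PT the filled point, Atf5 at -1.04, is the one that was called.

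Most of the 10 genes shifted the same way between the arrays of T and between those of PT. Replicate 2 read higher than replicate 1 for 9 of 10 genes in T, 9 of 10 in PT and 7 of 10 in mVec. The 7 in mVec include Atf3, Sesn2 and Ppp1r15a, which were under the limit on both arrays. Readings under the limit have no order, so a joint shift is not shown in mVec. Among probe sets above the background limit the share higher on replicate 2 was 55.1% in T, 60.3% in PT and 46.7% in mVec. The median gap between the arrays over the 10 genes was 0.21 in T, 0.44 in PT and 0.23 in mVec, beside 0.05, 0.08 and -0.02 over probe sets above the limit. The widest gaps were 0.998 for Ddit4 in T, 0.91 for Ppp1r15a in PT and 0.39 for Ddit4 in mVec. What set the arrays apart was not tested.

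The profiles over the 6 arrays were compared after each gene was centred on its own mean, by the mean absolute log2 difference. This measure grows with the size of a gene's change and takes in readings under the limit, so it describes likeness in size as well as in pattern. Within the 10, Atf4 and Asns differed by 0.13, Ddit4 and Sesn2 by 0.20 and Trib3 and Sesn2 by 0.21. Among 7213 genes compared, the closest to Atf4 were Arhgef2 (0.03), Ivns1abp (0.04), E2f5 (0.06), Nhlrc2 (0.06) and Pgk1 (0.07). The closest to Ddit3 were Cenpv (0.09), Sphk2 (0.09), Tex30 (0.10), Aldh18a1 (0.10) and Ovgp1 (0.11).

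The genes around the response were taken from 14 lists with 118 measured genes, also chosen with earlier results of these data known. Upstream, the 4 kinases that phosphorylate eIF2alpha did not move in one direction: in each Kit line 2 were called lower and 1 higher. Eif2ak2, which encodes PKR, the sensor of double-stranded RNA, read 13.43 and 13.10 in mVec, 11.13 and 10.59 in T and 10.83 and 10.51 in PT. It was 5.3-fold lower in T (log2 difference -2.41 ± 0.26, limma adjusted p = 5.48e-05) and 6.03-fold lower in PT (-2.59 ± 0.26, limma adjusted p = 2.4e-05).

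Eif2ak3, which encodes PERK, the kinase of the endoplasmic reticulum, was lower by -1.32 ± 0.24 in T (2.49-fold, limma adjusted p = 0.00169) and by -1.51 ± 0.24 in PT (2.84-fold, limma adjusted p = 0.000593). Eif2ak4, which encodes GCN2, the sensor of uncharged tRNA, read 10.35 and 10.21 in mVec, 10.97 and 11.48 in T and 11.44 and 11.22 in PT. It was higher by 0.94 ± 0.23 in T (1.92-fold, limma adjusted p = 0.0112) and by 1.05 ± 0.23 in PT (2.07-fold, limma adjusted p = 0.00538). Eif2ak1, which encodes the haem-regulated kinase HRI, differed by 0.01 in T and -0.54 in PT and was not called in either, with limma's adjusted p = 0.982 and 0.0626. Under quantile normalization it was called lower in PT.

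Of 7 subunits of eIF2 and its exchange factor eIF2B, 5 were called higher in T and 4 in PT, and none lower. The largest differences were those of the eIF2B subunits Eif2b3, 6.61-fold higher in T and 3.77-fold in PT, and Eif2b1, 3.88-fold higher in T and 4.76-fold in PT. The eIF2 subunit Eif2s2 was 2.31-fold higher in T and 1.75-fold in PT. Of 4 phosphatase partners, 2 were called higher in each line: Ppp1r15b, the constitutive counterpart of Ppp1r15a, by 1.65 ± 0.26 in T and 0.96 ± 0.26 in PT, and the catalytic subunit Ppp1cc by 0.60 ± 0.20 in both, a call that was lost under quantile normalization.

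The paralogs of the 10 genes moved in both directions. Of 8 measured, 4 were called lower in each Kit line and 2 higher, with a median log2 difference of -0.61 in T and -0.80 in PT. Sesn3, a sestrin that FOXO factors induce, read 13.72 and 13.63 in mVec, 9.51 and 9.51 in T and 8.12 and 8.27 in PT. It was 18-fold lower in T (log2 difference -4.17 ± 0.20, limma adjusted p = 3.64e-07) and at least 25.4-fold lower in PT (-5.48 ± 0.20, limma adjusted p = 5.24e-08).

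Sesn1, a sestrin under p53 control, read 10.99 and 10.90 in mVec, 7.84 and 7.41 in T and 7.37 and 7.56 in PT, under the limit in both Kit lines. The fall was at least 4.32-fold in T (limma adjusted p = 2.86e-06) and at least 3.81-fold in PT (limma adjusted p = 1.46e-06). Of the 3 sestrins, Sesn2, at background in mVec, was called higher in both lines and the others lower. What set the sestrins apart was not tested.

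The tribbles were split in a like manner. Trib2, a pseudokinase known as an oncogene in melanoma, read 11.36 and 10.89 in mVec, 7.37 and 7.07 in T and 6.38 and 6.03 in PT, at least 4.89-fold and at least 4.32-fold lower (limma adjusted p = 1.93e-06 and 3.36e-07), whereas Trib3 was higher in both lines. Trib1 was called lower in both lines but lay under the limit on all 6 arrays, so no fold is given. Chac2, the constitutive relative of Chac1, was higher by 1.07 ± 0.21 in PT (limma adjusted p = 0.0026) and by 0.54 in T, where it was not called (limma adjusted p = 0.0843) but was called higher under median centring and under quantile normalization. It was at background in mVec, and the bound was at least 1.91-fold for PT. Jdp2, a repressor related to Atf3, was at least 2.31-fold higher in T (limma adjusted p = 0.00329) and was at background in mVec and PT. Between the Kit lines, 3 paralogs were called higher in T: Jdp2, at least 2.29-fold (limma adjusted p = 0.00605), Sesn3, at least 1.41-fold (limma adjusted p = 0.00529), and Trib2, at background in both (limma adjusted p = 0.0353), a call lost under quantile normalization.

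**Figure D3:**
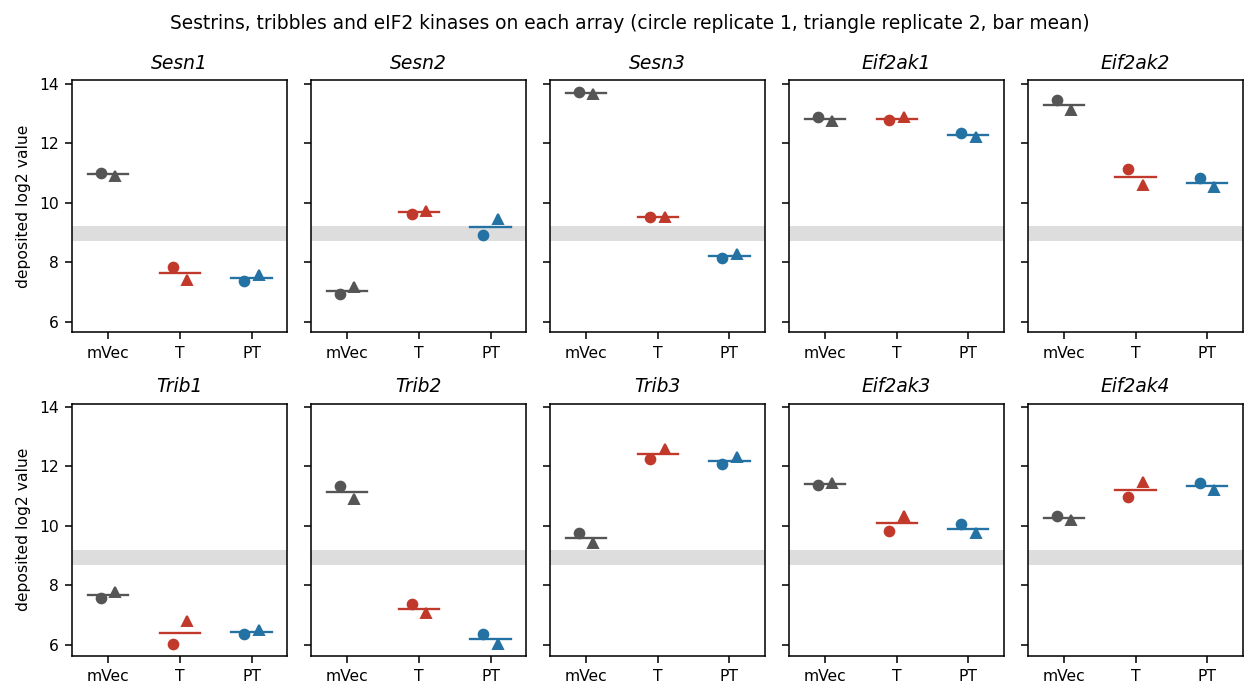
Deposited log2 values on each array of the sestrins, the tribbles and the 4 eIF2alpha kinases, with circles for replicate 1, triangles for replicate 2, bars for the line mean and a grey band for the background limits, 8.74 to 9.16. Sesn2 and Trib3 are higher in T and PT than in mVec, while Sesn1, Sesn3 and Trib2 are lower; Trib1 lies under the limit on all 6 arrays, and Eif2ak2 and Eif2ak3 are lower while Eif2ak4 is higher.

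Among the C/EBP factors, the usual partners of ATF4, Cebpg read 10.78 and 11.32 in mVec, 13.00 and 12.98 in T and 13.36 and 13.60 in PT. It was 3.84-fold higher in T (log2 difference 1.94 ± 0.24, limma adjusted p = 0.000144) and 5.4-fold higher in PT (2.43 ± 0.24, limma adjusted p = 2.32e-05). Cebpd, an inflammatory member of the family, fell below the limit, by at least 6.33-fold in T and 5.59-fold in PT. Cebpb was called higher in both lines but lay at background in all of them.

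Genes in the lists of ATF4 targets outside the 10 were called higher far more often than lower. Over all probe sets, 16.9% were called higher and 15.5% lower in T, and 17.9% and 18% in PT. Above background on at least 2 arrays, the shares were 36.5% and 27% in T and 37.3% and 31.7% in PT. Of 18 further targets, 13 were called higher and 1 lower in T, with a median log2 difference of 1.39. In PT 11 were called higher and 2 lower, with a median of 0.95. Fgf21, counted as higher in T, lay at background in all lines. Tnfrsf10b, the death receptor for TRAIL, which CHOP is known to induce, was at background in mVec. It read 4.33 and 4.29 in mVec, 11.56 and 11.15 in T and 13.02 and 12.78 in PT, so that the rise was at least 5.12-fold in T and at least 14.9-fold in PT (limma adjusted p = 3.98e-08 and 1.11e-08). Like Atf5, Tnfrsf10b was called lower in T than in PT (log2 difference -1.54 ± 0.22, limma adjusted p = 0.00438).

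Stc2, a secreted glycoprotein that modulates calcium entry, rose at least 35-fold in T and 27.1-fold in PT. Adm2, a peptide hormone, rose at least 2.86-fold in T and 5.87-fold in PT. The target called lower in both lines was Bcl2l11, which encodes the death factor BIM, 8.3-fold lower in T and, at background in PT, at least 9.22-fold lower there. Pck2, the mitochondrial enzyme of gluconeogenesis, was called lower in PT (-1.75 ± 0.29, limma adjusted p = 0.000813) and differed by -0.13 in T (limma adjusted p = 0.804).

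All 7 measured genes of serine, glycine and proline synthesis were called higher in T, with a median log2 difference of 3.48, and 6 of 7 in PT, with a median of 2.66. Aldh1l2, of mitochondrial folate metabolism, was 14-fold higher in T and 14.1-fold higher in PT, Psph, the last enzyme of serine synthesis, 11.2-fold and 17-fold, and Aldh18a1, the entry enzyme of proline synthesis, 11.4-fold and 10.1-fold. The exception was Phgdh, which opens serine synthesis. It read 4.29 and 4.75 in mVec, 9.0 and 9.83 in T and 5.38 and 5.28 in PT, so that it passed the limit in T alone. Against the limit of the PT arrays, T exceeded PT at least 1.32-fold (limma adjusted p = 0.000216). Under median centring and under quantile normalization Phgdh was called higher in PT as well, where its deposited readings were under the limit.

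Of 9 amino acid transporters, 7 were called higher in T and 8 in PT and none lower, with medians of 2.54 and 1.95. Slc7a3, counted as higher in PT, lay at background in all lines. Slc7a1, the carrier of arginine and lysine, was 20-fold higher in T and 25.8-fold in PT, Slc1a4, a carrier of small neutral amino acids, 7.2-fold and 6.32-fold, and the glycine carrier Slc6a9 5.82-fold and 7.15-fold. All 11 aminoacyl-tRNA synthetases, which charge tRNAs, were called higher in both lines, with medians of 1.82 in T and 1.98 in PT. Wars, for tryptophan, was 9.2-fold higher in T and 14.5-fold in PT, Lars, for leucine, 7.89-fold and 7.57-fold, and Nars, for asparagine, 4.58-fold and 5.45-fold. The letters TGATGNAA, in the promoter window of 4.51% of 26994 genes, were in that of 4 of the 7 measured synthetases matched in RefSeq (Gars, Iars, Tars and Yars). They were in 2 of 6 transporters (Slc1a4 and Slc7a11) and in 5 of 15 further ATF4 targets (Fgf21, Herpud1, Nupr1, Pck2 and Vldlr). They were in none of the 6 matched genes of serine, glycine and proline synthesis. Of the other lists, Eif2s3x among 6 subunits of eIF2 and eIF2B and Jdp2 among 6 paralogs held them, and no matched gene of the remaining lists did.

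The other arms of the unfolded protein response, which run through ATF6 and XBP1, had no common direction. Of 14 genes, 4 were called higher and 5 lower in T, and 3 higher and 5 lower in PT. Their median was -0.10 in T and -0.24 in PT, and it became 0.08 in T under median centring. Ern1, which encodes the sensor IRE1, was 2.87-fold higher in T and 3.47-fold higher in PT. Its target Xbp1 differed by 0.40 in T, where it was not called (limma adjusted p = 0.192), and was lower by -1.50 ± 0.21 in PT (limma adjusted p = 0.000249). Edem1, of misfolded protein disposal, was lower in PT by -2.24 ± 0.23 and in T by -0.76 ± 0.23, a call lost under median centring, and Sdf2l1 was at background in all lines. Hspa5, the chaperone BiP, was 1.6-fold higher in T (limma adjusted p = 0.0246) and differed by 0.48 in PT (limma adjusted p = 0.0903). Under median centring and under quantile normalization Hspa5 was called higher in PT as well.

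Among 7 genes of the mitochondrial stress relay and its chaperones, 5 were called higher and 1 lower in each Kit line. The matrix protease Lonp1 was 9.04-fold higher in T and 10.5-fold in PT, the protease subunit Clpp at least 7.28-fold and at least 6.45-fold, and the chaperone Hspa9 2.54-fold and 3.83-fold. Oma1, the protease that starts the relay, was called lower in both lines at background readings. That call was lost in both under quantile normalization and in T under median centring. Its partner Dele1 was called in neither, but was called higher in T under median centring.

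Other inducers share genes with the response, among them p53 for Sesn2 and hypoxia for Ddit4, and their lists were mixed. Of 10 p53 targets, 4 were called higher and 4 lower in T, and 5 higher and 3 lower in PT. Eda2r was at least 3.4-fold higher in T and at least 1.3-fold in PT, and Zmat3 at least 4.84-fold and at least 5.83-fold. Of 9 hypoxia targets, 4 were called higher and 2 lower in T, and 3 higher and 3 lower in PT. Vegfa was 3.63-fold higher in T and 4.92-fold in PT, and Pdk1 2.9-fold and 2.61-fold, while Egln3 was at least 7.69-fold and at least 6.79-fold lower.

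Immediate early genes, which respond to growth factors and to handling, moved opposite to the 10. All 9 genes of their list were called lower in both Kit lines, with median log2 differences of -1.87 in T and -2.21 in PT. The shares called lower over all probe sets were 15.5% in T and 18% in PT. Above background on at least 2 arrays they were 27% and 31.7%. The list's 2 heat shock genes, Hspa1a and Hspa1b, lay at background in all lines, so no measurable fall is shown for them. Fos read 14.02 and 14.33 in mVec, 7.69 and 7.69 in T and 6.85 and 7.23 in PT, at least 40.6-fold and at least 35.9-fold lower. Fosb was at least 4.11-fold and at least 3.63-fold lower, and Egr1 4.57-fold and 16.6-fold. The part of these genes in the rise of the 10 was not tested.

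**Figure D4:**
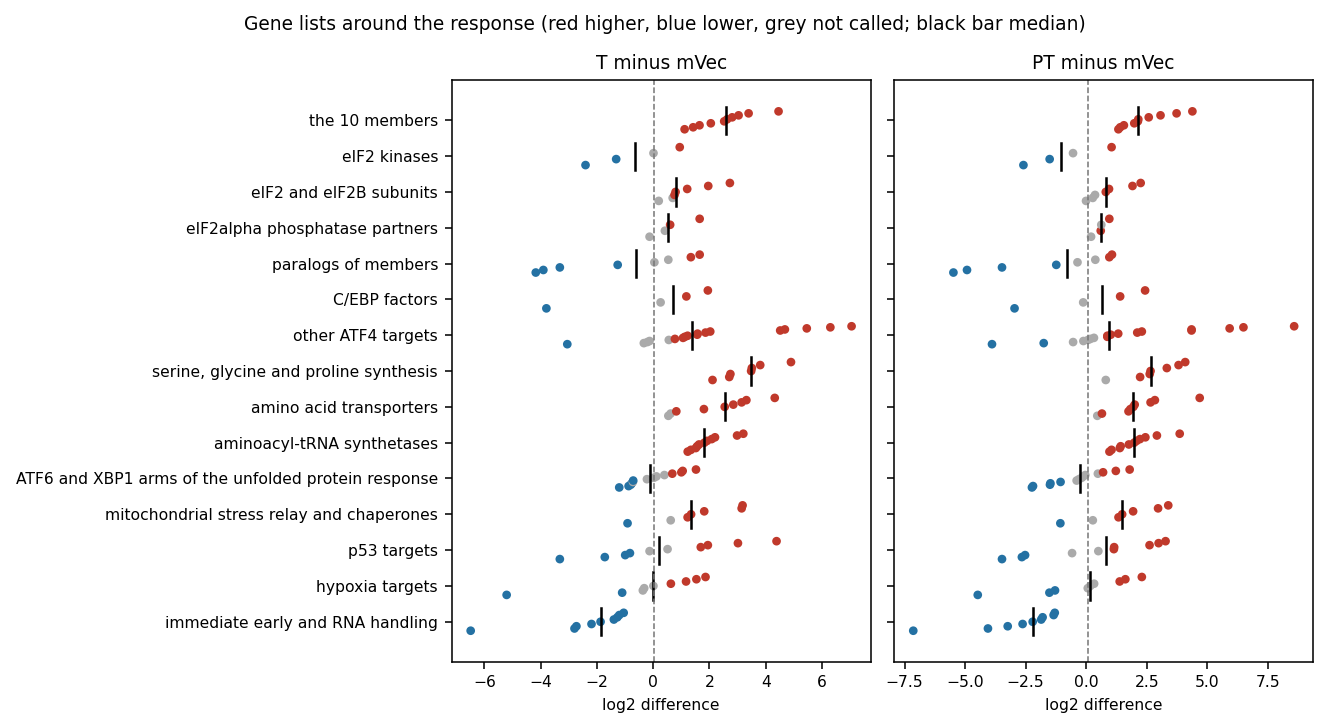
Log2 differences of the 10 genes and of the measured genes of 14 lists in T (left) and PT (right) against mVec, with red for genes called higher, blue for genes called lower, grey for those not called, black bars for list medians and a dashed line for the median of all probe sets; the x axes of the panels have different ranges. The 10 genes have medians of 2.58 in T and 2.14 in PT, the aminoacyl-tRNA synthetases are all red, and the immediate early genes are all blue.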

How the data were processed

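The table deposited by the authors holds a log2 level for each probe set on each array, a unit inferred from the range of the numbers. The software, normalization and genome build behind it are not stated in the labels. Of 28846 rows, the 22206 gene probe sets were tested (19572 with 1 gene symbol, 2634 with none). Columns were tied to samples by the identifiers in their headers. R 4.3.3 and limma 3.58.1 (lmFit, eBayes) fitted all 6 arrays with 1 mean per line, 3 residual and 6.36 prior degrees of freedom, with Benjamini-Hochberg adjustment across the gene probe sets of a comparison. The fit was tested on simulated data. Of several probe sets of a gene, the one with the highest mean was used. Where a line had no array above the background limit, the fold was computed against that limit ("at least"); none was given where both lines were at background or the bound was under 1. The alternatives were median centring, quantile normalization, a variance trend, a filter on low values, a fit of the lines compared, a replicate block, averaged probe sets and leaving out each array.

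Besides the 10 genes, the genes named are up to 3 per list with the largest mean absolute difference from mVec, among those called; others are named where a count or a family turned on them, after their values were seen. The 10 genes and the lists were chosen with earlier results of these data known.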

Additional observations from a re-analysis of the deposited data

Results flagged for a closer look

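Atf5 was flagged because it was called between the Kit lines, as were 5.67% of all probe sets higher in T and 2.7% lower. T minus PT was -1.04 on the log2 scale with limma's adjusted p = 0.0237. The arrays of the lines did not overlap, as for 50.1% of all probe sets in either direction. Atf5 was lower on 2 of 2 T arrays than on either PT array. The call was not kept when either T array or PT replicate 2 was left out.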

How the results depend on the processing

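All 10 genes kept their direction and their call against mVec under all 13 alternatives in both lines, 130 of 130 values each for T and for PT. A variance trend, the low-value filter, the replicate block and the fit of the lines compared cannot change the log2 difference. Leaving out an array of the line not compared cannot either, and averaged probe sets alter Ddit3 alone. Under these settings, apart from averaged probe sets for Ddit3, only the call was tested. For T minus PT, 125 of 130 values kept their direction and their call. The number of the 10 called in T minus PT was 1, and ran from 0 to 1 with single arrays left out, when either T array or PT replicate 2 was omitted. Over the 13 alternatives the T minus PT difference of Atf5 ran from -1.27 to -0.81. The T minus PT difference of Atf3, near 0, ran from -0.21 to 0.34 and turned to -0.21 without T replicate 2 and to -0.14 without PT replicate 1. With a replicate block the counts were 10 in T, 10 in PT and 1 in T minus PT. Over all probe sets the deviations of same-numbered arrays correlated with r = 0.08, 0.04 and 0.04, so the numbers were not used as pairs. Most of the 10 genes nevertheless read higher on replicate 2 in T and in PT. Median centring moved the median of all probe sets from 0.01 to 0.20 in T and from 0.08 to 0.27 in PT, and the share of calls that were higher from 52.3% to 62.3% in T and from 49.9% to 60.3% in PT. No call of a listed gene turned its direction under median centring or quantile normalization. Over all probe sets, T minus PT gave 1857 calls with all arrays, and fewer with any single T or PT array left out. The number of arrays limits the precision, and readings under the background limit have no order.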
